A study of Mus musculus with 142 samples.

Results

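The replication timing (RT) of homologous chromosomes that carried no deletion at the Dppa locus was compared between the musculus and the castaneus (CAST) homologs of a hybrid mouse embryonic stem cell (mESC) line. The alleles were chosen by the ending of their column header, which marks an unmodified control allele. They took up 57 of the 138 columns of the table. There were 2 unmodified musculus alleles and 43 unmodified CAST alleles once repeat runs and repeat cultures had been averaged to clones, out of 106 alleles in 53 clones. The musculus group held 4 columns from 3 libraries, and the CAST group held 53 columns from 51 libraries. Numbered columns that share a sample title without a number were taken as repeat runs of a library. Samples with a replicate number in the title were taken as repeat cultures. Both readings are inferred, since the labels give only replicate numbers.

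The cells were F121-9, an F1 hybrid mESC line with a musculus and a CAST homolog of every autosome, grown in 2i + LIF, and every clone came from it by CRISPR-mediated deletion. Cells were labelled with BrdU, sorted into early and late S phase, and the labelled DNA was sequenced (E/L Repli-seq). The value in each 50 kb window is log2(E/L), early over late reads of a homolog, so a higher value means earlier replication. One unmodified musculus allele was that of CR11.8k clone 50, whose CAST allele lacked the right part of segment C (a regulatory stretch inside Morc1), and the other was that of CTSS clone C4, whose CAST allele lacked the transcription start site in C. The unmodified CAST alleles came from clones of 24 deletion genotypes in which the musculus allele carried the deletion. "Unmodified" refers to the Dppa locus alone and was taken from the column headers. The genotype table lists 42 of the 45 alleles as WT, and the other 3 are the CAST alleles of A.BOSN12.BTSS.COSN123 clone C4 and CR14.6k clones 16 and 53. In 20 of the 43 CAST clones the genotype name holds COSN123, and some of these genotypes were built on an earlier clone, so the clones are not fully independent. The musculus group rests on 2 clones, and since each homolog came from a single parent, strain and parent of origin cannot be told apart.

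The Dppa locus on chromosome 16 holds Dppa2 and Dppa4, genes of the pluripotent state, and Morc1, which is needed for spermatogenesis. It replicates early in mESCs and lies between late-replicating flanks. RT is organised in large domains that replicate together, with transitions between early and late domains where the profile slopes. Homologs of a hybrid can be told apart by sequence variants between the strains, so the RT of each can be read from the same cells.

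The guides that removed the CAST copies define the musculus alleles that served as controls, and they are shown for that reason. They cut on chromosome 16 (mm10) at chr16:48601328-48601350 on the plus strand (C-RIGHT-G1), at chr16:48611106-48611128 on the plus strand (C-TSS-G1) and at chr16:48613166-48613188 on the minus strand (C-OSN-1-G1). C-RIGHT-G1 with C-OSN-1-G1 made the 11827 bp deletion of CR11.8k, and C-TSS-G1 with C-OSN-1-G1 the 2049 bp deletion of CTSS. All 3 guides cut inside Morc1 (chr16:48431237-48630900), to the right of Dppa4 (chr16:48283733-48294237) and Dppa2 (chr16:48303908-48319723). The sequences run 5′ to 3′ with the PAM in capitals.
C-RIGHT-G1: tgaatgtgtgagacatgcgaAGG
C-TSS-G1: ttctggccatgtttggttagAGG
C-OSN-1-G1: gagtaactcaggcaaaacgtTGG

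Values were present in 93.2% of the 49264 windows of the 19 autosomes for the musculus allele of CR11.8k clone 50 and in 92.3% for that of CTSS clone C4. In the CAST clones the share ran from 75.2% to 94.0% (median 86.9%). Of the CAST alleles, 8 had no value on a whole chromosome: 5 on chromosome 11, 2 on chromosome 14 and 1 on chromosome 16. Only ratios were at hand, so the depth behind each value is unknown. Repeat measurements set the technical error: the 2 runs of CR11.8k clone 50 correlated at r = 0.963 across windows, and the 2 cultures of CTSS clone C4 at r = 0.962.

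Genome-wide, the strains differed in many domains, while the mean difference over windows was near 0. The difference of the group means, musculus minus CAST, had a mean of −0.01 and an SD of 0.27 log2(E/L) over the 45201 windows that could be tested and a range of −0.43 to 0.43 from the 5th to the 95th percentile. It reached −1.60 at the lowest and 1.78 at the highest. The profiles had been quantile-normalized by the authors, so their average levels are relative to that step. Medians of the alleles ran from −0.18 to 0.28 on CAST and were −0.09 and −0.05 on musculus. The highest median was that of the CAST allele with the fewest values (BTSS.CTSS clone G3, 75.2% of windows). The allele with the most values (CTSS clone C12, 94.0%) was at −0.18. The part of missing windows in these medians was not tested. The part of the normalization in the mean near 0 was not tested. The difference was at least 0.5 in either direction in 6.88% of windows.

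Clones of different strains were farther apart than clones of the same strain. The SD over windows of the difference between 2 clones had a median of 0.35 for the 86 pairs of a musculus and a CAST clone (0.31 to 0.45) and of 0.27 for the 903 pairs of CAST clones (0.14 to 0.46). It was 0.21 between the unmodified musculus alleles, each an average of 2 columns, while most CAST clones had a single column. Before averaging, the SD between repeats of the same musculus clone was 0.28 in both CR11.8k clone 50 and CTSS clone C4. The part of this averaging in the closeness of the musculus alleles was not tested. The distributions overlapped, since 253 CAST pairs were at least as far apart as the closest musculus and CAST pair, and 79 were at least as far apart as the median one. Correlations across windows followed the same order, with medians of r = 0.94 between strains, r = 0.96 among CAST clones and r = 0.98 between the musculus clones. Pairs share clones and neighbouring windows share reads through smoothing, so these are descriptions without a test.

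**Figure D1:**
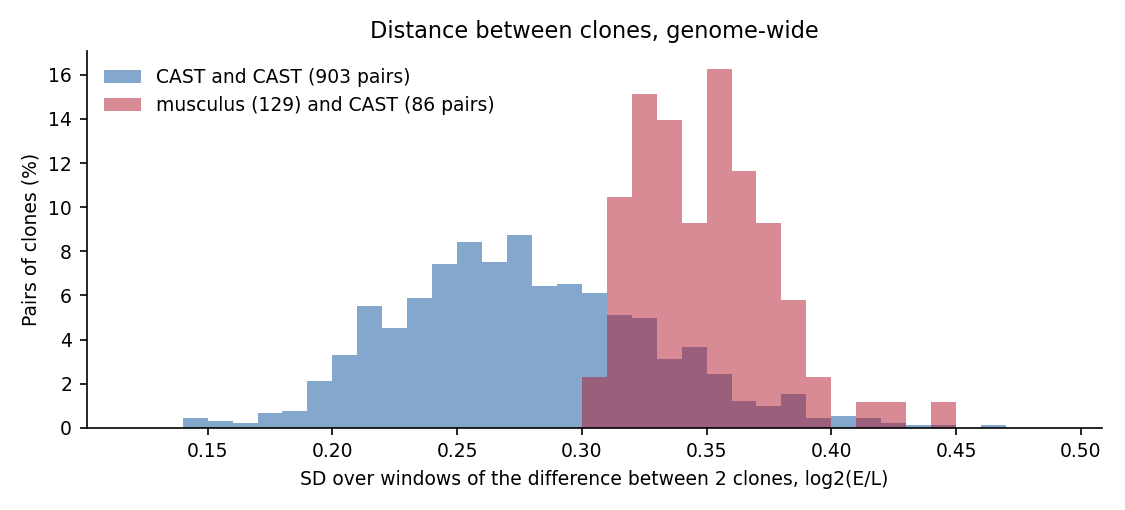
SD over windows of the difference in log2(E/L) between 2 clones (x axis) against the share of pairs in percent (y axis), for 903 pairs of CAST clones (blue) and 86 pairs of an unmodified musculus and a CAST clone (red). The musculus and CAST pairs lie between 0.31 and 0.45, and the CAST pairs between 0.14 and 0.46.

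Each window was tested with limma on clones, and a window was called at a Benjamini-Hochberg adjusted p of 0.05 or less over all 45201 windows. By this rule 2169 windows (4.8%) replicated earlier on musculus and 2078 (4.6%) earlier on CAST. When a difference of at least 0.5 was also asked for, 1484 windows (3.28%) were earlier on musculus and 1353 (2.99%) earlier on CAST. Both musculus clones lay above every CAST clone in 1536 windows (3.4%) and below every CAST clone in 1278 (2.83%). The split between the strains depends on centring: with each column set to its median, 2885 windows were called earlier on musculus and 1098 earlier on CAST. Centring subtracts the allele medians given above, the highest of which belonged to the allele with the fewest values. The number of calls depends on having both musculus clones. Without CR11.8k clone 50 there were 589 windows earlier on musculus and 588 earlier on CAST, and without CTSS clone C4 there were 719 and 618. Of the 2837 windows called and at least 0.5 apart, 1111 and 1229 were called by that rule in these fits, and none changed sign.

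Windows of intermediate mean RT held the largest share of calls. With windows classed by the mean of both strains, 14.0% of the 10247 windows between −0.5 and 0.5 were called and at least 0.5 apart, against 2.45% of the 16777 early windows above 0.5 and 5.45% of the 18177 late windows below −0.5. A window that is early on one homolog and late on the other falls in the middle class by its mean, so the difference itself has a part in the class and these shares are a description. The median absolute difference was 0.20, 0.09 and 0.15 in these classes. The spread over CAST clones did not follow the same order, with median SDs of 0.21, 0.17 and 0.22. Slopes were also richer in calls: with windows ranked by the step to a neighbouring window and divided into 4 equal groups, 8.06% of the steepest group were called and at least 0.5 apart, against 3.91% of the flattest.

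The 51 clones whose musculus allele carried a deletion at the Dppa locus gave a comparison that shares no column with the within-clone comparison of CR11.8k clone 50 and CTSS clone C4. The difference inside a clone, musculus minus CAST, was averaged over each set outside the chromosome 16 region from 46.5 to 50.5 Mb. Across 44768 windows the sets correlated at r = 0.90 (smoothed, neighbouring windows, no test). Inside both of the former clones musculus was earlier by at least 0.5 in 1076 windows, where the mean difference was 0.77, and in the other clones the mean over the same windows was 0.65. CAST was earlier by at least 0.5 in 1101 windows, with means of −0.77 and −0.70. The mean of the other clones had the same sign in 1071 of the 1076 and in 1099 of the 1101 windows, and was at least 0.5 in 821 and 912 of them.

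By chromosome, differences of whole autosomes were small, and none passed the test between the 2 musculus and the CAST clones. The mean log2(E/L) of a chromosome was taken for each clone with values in at least 50% of its windows, and the group means differed by −0.12 (chromosome 16) to 0.0038 (chromosome 11). On chromosome 16 the musculus alleles had means of −0.26 and −0.27, and the 42 CAST alleles a mean of −0.15 ± 0.14 (SD), from −0.35 to 0.19. On chromosome 11 the musculus alleles were both at 0.38, beside 0.37 ± 0.09 for 38 CAST clones. Both musculus clones lay within the range of the CAST clones on all 19 autosomes. The exact two-sided permutation test over clones gave an adjusted p of 0.662 or more for every autosome, and 0 of 19 had an unadjusted p under 0.05, where 0.00101 was the smallest p that 990 arrangements can give. These means run over the windows with a value in each clone, of which the musculus alleles had more than most CAST alleles. Averaged over windows instead, the differences ran from −0.04 (chromosome 17) to 0.03 (chromosome 11). From windows with a value in every clone that has the chromosome, they ran from −0.07 (chromosome 17) to 0.08 (chromosome 11). Chromosome 16 was then at −0.02. The sign turned on several autosomes, as on chromosome 3 from −0.07 to 0.04. The chromosome means thus depended on which windows were used. Inside clones, with all 53 clones and alleles of any Dppa genotype, 13 of 19 autosomes passed the threshold (permutation test by 100000 sign flips), 11 of them earlier on CAST and 2 earlier on musculus. The differences were −0.06 ± 0.03 (SD, n = 51 clones) on chromosome 13, −0.05 ± 0.04 on chromosome 17 and 0.03 ± 0.05 (n = 47) on chromosome 11, each with a permutation adjusted p of 2e-05, the smallest that the flips can give here.

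Chromosomes differed in how many of their windows were called. Windows called and at least 0.5 apart made up 10.3% of chromosome 17, 9.27% of chromosome 13, 9.11% of chromosome 18 and 8.63% of chromosome 10. The lowest shares were 3.90% on chromosome 14, 4.00% on chromosome 4 and 4.16% on chromosome 2. Direction varied as well. Chromosome 17 had 120 windows earlier on CAST and 54 earlier on musculus, chromosome 13 had 123 and 85, and chromosome 4 had 75 and 37. Chromosome 1 had 103 windows earlier on CAST and 192 earlier on musculus, chromosome 11 had 42 and 95, and chromosome 18 had 60 and 99. The median SD over CAST clones lay between 0.19 (chromosome 8) and 0.21 (chromosome 3) on every autosome. Its part in the shares called was not tested. Chromosome 16, which carries the Dppa locus, was below the middle with 4.92%, of which 59 windows were earlier on CAST and 31 earlier on musculus.

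**Figure D2:**
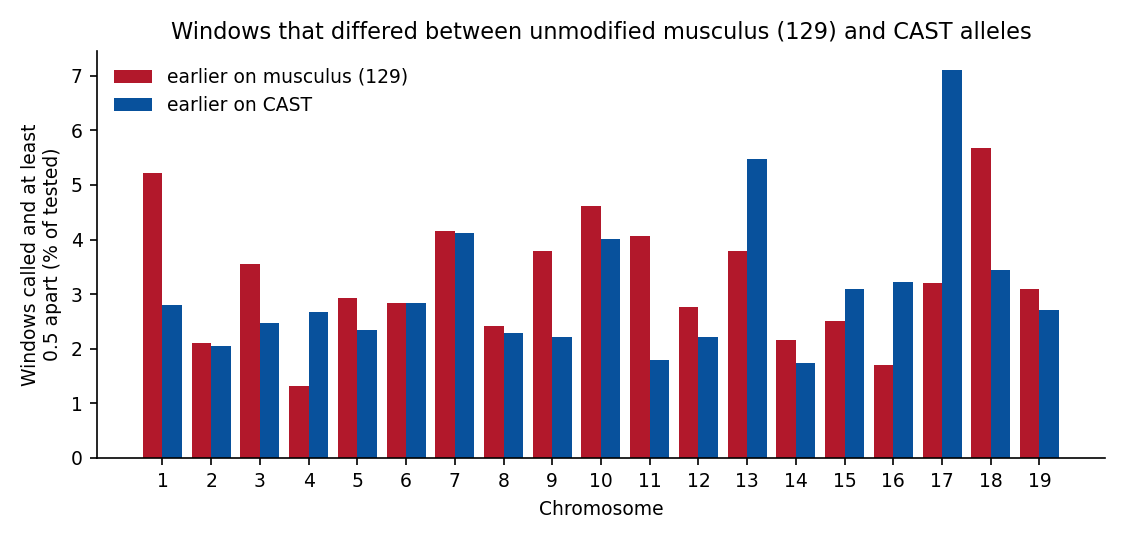
Share of tested windows that were called and at least 0.5 apart (y axis, percent) for each autosome (x axis), earlier on musculus in red and earlier on CAST in blue. Chromosome 17 had the largest share earlier on CAST (7.10%) and chromosome 18 the largest share earlier on musculus (5.67%).

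Called windows were grouped into runs. The profiles had been smoothed over spans of several windows, so neighbouring calls are not independent. The part of the smoothing in the number and length of the runs was not tested. Runs of at least 4 neighbouring windows, called and at least 0.5 apart in the same direction with 1 window bridged, numbered 158 earlier on musculus and 146 earlier on CAST, over 64.75 and 58.65 Mb. Each set reached all 19 autosomes and had a median length of 350.0 kb. The longest runs spanned 1600 kb on chromosome 18 (earlier on musculus) and 1550 kb on chromosome 13 (earlier on CAST). No protein-coding gene started in 38 of the 158 and in 45 of the 146 runs. The mean of both musculus clones lay outside the range of the CAST clones in 134 and 120 of them. The runs were chosen by the test, so their values below are a description.

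The 8 runs with the largest mean difference towards earlier RT on musculus held members of gene clusters as well as single-copy genes. The largest lay on chromosome 8 from 20.8 to 21 Mb and holds Defb33, a beta-defensin gene. There the musculus alleles were at 0.10 in CR11.8k clone 50 and 0.19 in CTSS clone C4, while 40 CAST clones ran from −1.67 to −0.97 (median −1.28). The domain was thus near 0 on musculus and late in every CAST clone, and the mean difference was 1.37. Next came a run on chromosome 16 itself, 19.05 to 19.4 Mb, outside the Dppa region, with the olfactory receptor gene Olfr164. It stood at 0.07 and 0.23 on musculus and from −1.56 to −0.80 (median −1.11) on CAST.

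The carbonic anhydrase genes Car1, Car2 and Car3, which interconvert carbon dioxide and bicarbonate, lay in a run on chromosome 3 from 14.8 to 15.35 Mb. Its means were −0.02 and 0.26 on musculus and from −1.56 to −0.88 (median −1.13) over 43 CAST clones, and its peak window held the largest difference of the genome, 1.78. A run on chromosome 6 from 137.4 to 138.05 Mb with Eps8 (an actin regulator), Dera (a deoxyribose-phosphate aldolase) and Strap stood at 0.59 and 0.41 on musculus and from −1.20 to −0.12 (median −0.58) on CAST. In the Eps8 run the musculus alleles were above 0 and every CAST clone below 0.

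Pid1 on chromosome 1 (83.6 to 84.5 Mb) was the run in which the musculus clones differed most from each other, at 0.50 and −0.06, above a CAST range of −1.14 to −0.48. Hcrtr2, an orexin receptor gene, with Fam83b and Gfral, the gene of the GDF15 receptor, lay in a run on chromosome 9 (76.1 to 76.7 Mb) at −0.28 and −0.30 on musculus and −1.62 to −0.997 on CAST. The longest run, on chromosome 18 (chr18:13400001-15000000), holds the zinc finger gene Zfp521, the TFIID subunit gene Taf4b and the BAF subunit gene Ss18. It stood at 0.29 and 0.20 on musculus and from −1.003 to −0.56 on CAST. St3gal1 (a sialyltransferase), Sla and Ndrg1 lay on chromosome 15 from 66.8 to 67.25 Mb, at 0.40 and 0.24 on musculus and from −1.14 to −0.01 on CAST. Without CR11.8k clone 50 its mean difference was 0.94 and 3 of its 9 windows were called.

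The 8 runs with the largest mean difference towards earlier RT on CAST were led by one on chromosome 6 from 66.0 to 66.65 Mb with Mad2l1, a spindle checkpoint gene, and the vomeronasal receptor genes Vmn1r34 and Vmn1r32. Its means were −0.53 and −0.54 on the musculus alleles and from 0.24 to 1.03 (median 0.60) over 43 CAST clones. Catsperb, a subunit of the sperm calcium channel, lay in a run on chromosome 12 (101.4 to 101.65 Mb) at −0.44 and −0.57 on musculus and from 0.28 to 0.86 on CAST. Trpc7, a cation channel gene, and Smad5, a mediator of BMP signals, lay on chromosome 13 (56.7 to 57.45 Mb) at −0.26 and −0.25 on musculus and from 0.44 to 1.16 on CAST. All 3 of these domains were above 0 in every CAST clone and below 0 in both musculus clones.

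Asph, an aspartate beta-hydroxylase gene, and the growth factor gene Gdf6 lay on chromosome 4 (9.3 to 10.2 Mb) at −0.81 and −0.70 on musculus and −0.12 to 0.76 on CAST. Agbl1 on chromosome 7 (75.85 to 76.4 Mb) stood at −0.59 and −0.61 on musculus and from 0.13 to 0.86 on CAST. Slc2a13, a myo-inositol transporter gene, lay on chromosome 15 (91.2 to 91.6 Mb) at −1.40 and −1.12 on musculus and from −0.88 to 0.15 on CAST. In numbered libraries its mean difference was −0.62 with 3 of 8 windows called, and −0.64 with 1 called under a replicate block. Ap1ar and Fam241a lay on chromosome 3 (127.8 to 128.3 Mb) at −0.73 and −0.67 on musculus and from 0.04 to 0.82 on CAST. A run on chromosome 18 from 60.05 to 60.3 Mb with no gene other than unnamed models stood at −1.03 and −1.10 on musculus and from −0.42 to 0.43 on CAST.

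The musculus alleles of the other clones carry a deletion at the Dppa locus and none is recorded in these runs, so their levels can be set beside the unmodified ones. At the Defb33 run 51 such alleles ran from −0.60 to 0.42 (median −0.05), at the Car1 run from −0.46 to 0.32 (median −0.03) and at the Zfp521 run from −0.05 to 0.45 (median 0.19). At the Mad2l1 run they ran from −0.79 to −0.19 (median −0.54), and at the Trpc7 run from −0.88 to 0.04 (median −0.28) in 50 alleles. In these runs the unmodified musculus alleles lay inside the range of the other musculus alleles, which did not overlap that of the CAST clones. The ranges did overlap at the Eps8 run, where the lowest other musculus allele was at −0.35, at the Pid1 run (−0.61), and at the chromosome 18 run from 60.05 Mb, where the highest was at −0.36.

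**Figure D3:**
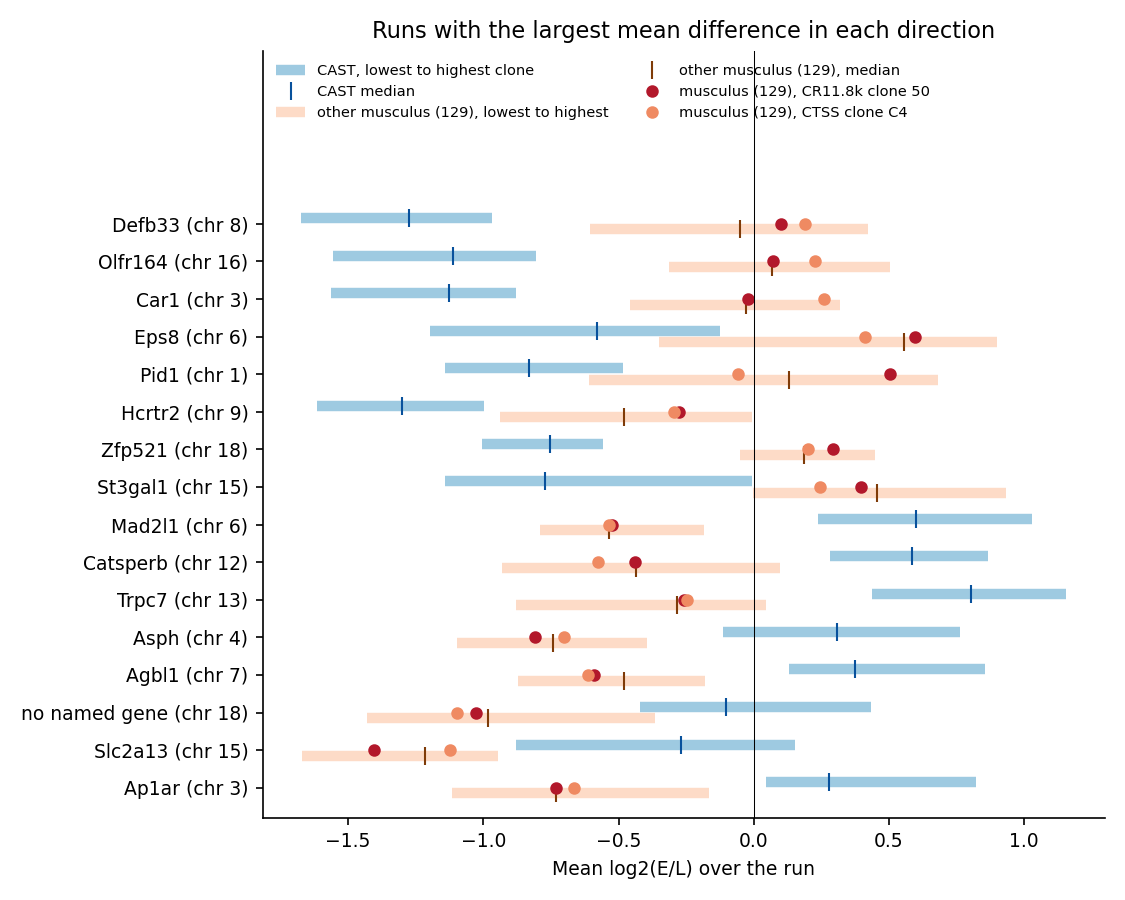
Mean log2(E/L) (x axis) over the 8 runs with the largest mean difference in each direction (y axis, by their longest named gene), with the unmodified musculus alleles as points, the CAST clones as blue bars from lowest to highest, and the musculus alleles of the other clones as light orange bars. The musculus points lie to the right of the blue bars in the upper 8 runs and to the left of them in the lower 8.

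Genes were assigned the window in which they start, so genes of a cluster share values. Of 19193 protein-coding genes with a tested window, 690 (3.6%) were called earlier on musculus and 582 (3.03%) earlier on CAST. Pluripotency genes came first as a check of the cell type in terms of RT, which gives no expression. All 23 started in windows with a mean above 0 on both strains, as did 79.97% of all genes on CAST, and 0 of 23 were called by limma in either direction or had an unadjusted p under 0.05. The largest differences of the list were 0.28 ± 0.19 (SE) for Zfp42, also known as Rex1, and −0.19 ± 0.19 for Tet1, a methylcytosine dioxygenase gene. At Zfp42 the musculus alleles were at 0.93 and 1.18 and the CAST clones ran from −0.0001 to 1.21.

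Of 45 imprinted genes with a tested window, 1 was called earlier on musculus and 2 earlier on CAST, with a median difference of −0.0014. Slc22a3, an organic cation transporter gene of the Igf2r cluster on chromosome 17, was at −0.13 and −0.35 on musculus and from 0.14 to 1.09 on CAST, a difference of −0.75 ± 0.16 (SE, limma adjusted p = 0.0005). Calcr, the calcitonin receptor gene, differed by −0.40 ± 0.12 (adjusted p = 0.0183), and Smoc1 by 0.40 ± 0.12 (adjusted p = 0.0191). These 3 genes were 6.67% of the list, near the sum of the background shares.

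Among 33 lineage factors that mESCs do not use, 2 were called earlier on musculus and 0 earlier on CAST, with a median difference of 0.15. These calls were 6.06% of the list, beside 3.6% and 3.03% of all genes. Sox9, a factor of cartilage and testis development, was at 0.36 and 0.16 on musculus and from −0.91 to 0.33 on CAST, so that one musculus clone lay within the CAST range (0.66 ± 0.18, adjusted p = 0.0122). Gata6, a factor of the primitive endoderm, was at 0.09 and −0.08 on musculus and from −0.88 to −0.12 on CAST (0.40 ± 0.12, adjusted p = 0.0221). Of 31 genes of the replication machinery, 3.23% were called, beside the same background: only Orc5, a subunit of the origin recognition complex. It was at 0.19 and 0.48 on musculus and from −0.79 to 0.14 on CAST, a difference of 0.64 ± 0.14 (adjusted p = 0.0011).

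Chemosensory gene clusters were called at shares near the background, 7.25% for olfactory and 7.33% for vomeronasal receptor genes. Of 910 olfactory receptor genes in 471 windows, 41 were called earlier on musculus and 25 earlier on CAST, with a median difference of −0.04. Olfr857 on chromosome 9 was at 0.14 and 0.20 on musculus and from −1.81 to −0.71 on CAST (1.29 ± 0.17), and its neighbours Olfr58 and Olfr860 differed by 1.23 ± 0.13 and 1.00 ± 0.13. In the other direction Olfr201, Olfr202 and Olfr203 shared a window on chromosome 16 with a difference of −0.72 ± 0.16. Of 232 Vmn1r and Vmn2r genes, 7 were earlier on musculus, led by Vmn1r184 (0.81 ± 0.18), and 10 earlier on CAST, led by Vmn1r32 (−1.01 ± 0.13).

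Zinc finger genes named Zfp were called 14 times earlier on musculus and 4 times earlier on CAST among 341, which is 5.28% of the list beside 3.6% and 3.03% of all genes, with a median difference of −0.03. Zfp317 on chromosome 9 stood at 0.18 in both musculus clones and from −1.57 to −0.51 on CAST (1.17 ± 0.16), Zfp157 on chromosome 5 differed by 1.08 ± 0.18, and Zfp958 on chromosome 8 by −0.83 ± 0.16. The clustered protocadherins, cell adhesion genes of neurons, were the list with the largest share called, 24.6%, but the 14 genes lay in 3 of 15 windows. Pcdhb11, Pcdhb12 and Pcdhb13 shared the window with the largest difference, −0.48 ± 0.14 (adjusted p = 0.0225). Of 46 defensin genes 2 were called (4.35%), Defb33 (1.57 ± 0.14) and Defb7 (0.52 ± 0.14), both earlier on musculus.

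Among Serpina and Serpinb genes 1 of 48 was earlier on musculus (Serpina3n, 0.52 ± 0.16) and 4 were earlier on CAST, among them Serpina10 (−0.48 ± 0.14), beside 3.6% and 3.03% of all genes. The 5 genes lay in 3 windows. Among Cyp2 and Ugt genes 5 of 73 were earlier on musculus, led by Cyp2a4 (0.68 ± 0.21), and 3 earlier on CAST, led by Cyp2j12 (−0.57 ± 0.16), 10.96% of the list in 7 windows, beside the same background. Of 22 Klr lectin genes 1 was called (4.55%), Klrb1b, a natural killer cell receptor gene (−0.40 ± 0.12). No Hox gene (0 of 29) and no clustered histone gene (0 of 52) was called by limma, nor did any of them reach an unadjusted p under 0.05. These genes lay in 11 and 13 windows, too few to set the lists apart from 3.6% and 3.03% of all genes. All 29 Hox genes with a tested window had a mean above 0 on both strains.

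Over the chromosome 16 region from 46.5 to 50.5 Mb, which holds the Dppa locus, no window of the early peak was called. The few called windows lay on the slope to its left. All 80 windows could be tested. Called windows numbered 4 (5.0%), all earlier on CAST, beside 4.6% of windows genome-wide, and 1 of them was also at least 0.5 apart. The share was thus near the background, and the 4 are neighbouring, smoothed windows that are not independent. By limma 0 were called earlier on musculus, where 1 window had an unadjusted p under 0.05, beside 11 earlier on CAST. No run of at least 4 windows called and at least 0.5 apart lay in the region.

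At the peak the alleles could not be told apart. Over the 8 windows of the Dppa core, 48.2 to 48.6 Mb, the musculus alleles had means of 1.02 in CR11.8k clone 50 and 0.98 in CTSS clone C4. The 42 CAST clones ran from 0.70 to 1.30 with a mean of 1.00 ± 0.13 (SD), and the musculus alleles lay in the middle, with 19 CAST clones below and 21 above both. The difference was −0.0018 (exact two-sided permutation test, adjusted p = 0.985 over 6 intervals). Its sign turned with several settings, at most to 0.0811. In the window of Dppa2 the musculus alleles were at 1.10 and 1.00 and the CAST mean at 1.00 ± 0.14, and in that of Dppa4 at 0.95 and 0.89 beside 0.92 ± 0.15. Morc1 and the gene model Gm5485 start in the same window, at 1.02 and 1.14 on musculus and 1.14 ± 0.14 on CAST.

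On the left slope, between 47.85 and 48.05 Mb, the 4 called windows followed each other. From left to right the differences were −0.49 ± 0.14, −0.52 ± 0.13, −0.48 ± 0.12 and −0.36 ± 0.12 (SE), with limma adjusted p values of 0.0132, 0.0045, 0.0061 and 0.0362. In the first of them the musculus alleles stood at −1.08 and −1.19, below all 42 CAST clones, which ran from −1.04 to −0.18. In the next 2 windows they stood at −0.88 and −1.005, and at −0.64 and −0.67, beside CAST means of −0.42 ± 0.18 and −0.17 ± 0.17. In the last the musculus alleles were at −0.34 and −0.28 and the CAST mean at 0.06 ± 0.15. No protein-coding gene starts in these windows. The point at which a profile crosses 0 on this slope, read from each clone after the difference had been seen and so without a test, was at 48.09 and 48.08 Mb on musculus and at 48.01 ± 0.04 Mb on CAST (47.92 to 48.12), 71.1 kb apart. Of the CAST clones 40 crossed further left than both musculus clones. On the right slope the crossing was at 48.96 and 48.98 Mb on musculus, within the CAST range of 48.88 to 49.07 Mb.

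In the same 4 windows the difference inside a clone, where the CAST allele carries the deletion, was −0.35 to −0.45 in CR11.8k clone 50 and −0.35 to −0.58 in CTSS clone C4.

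Inside these clones the left flank from 46.5 to 47.5 Mb was also later on musculus, by −0.32 in CR11.8k clone 50 and −0.13 in CTSS clone C4. Over that flank the unmodified musculus alleles had means of −1.26 and −1.20, below each of the 39 CAST clones with values in at least 50% of its windows (−1.18 to −0.54, mean −0.94 ± 0.16). The difference was −0.28, with an exact two-sided permutation p of 0.0159 and an adjusted p of 0.0951, so it did not pass the threshold. Window by window, 0 of 20 were called by limma, and both musculus alleles lay below every CAST clone in 1. Values are sparse there, with 18 to 42 CAST clones behind each window. Each clone mean runs over the windows with a value in that clone, and the part of missing windows in the separation was not tested. The result also moved with the setting. The adjusted p was 0.0369 with 1 value per genotype and 0.0439 with columns centred on their median, while numbered libraries gave −0.10 (permutation adjusted p = 0.69) and, with a replicate block, −0.07 (adjusted p = 0.588).

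To the right of the locus the order was turned. In the domain from 49.65 to 50.05 Mb, with Ift57, a gene of ciliary transport, and Cd47, which encodes a signal that restrains phagocytosis, the musculus alleles were at −0.21 and 0.06. The CAST clones ran from −1.25 to 0.05 with a mean of −0.43 ± 0.25 (n = 42). One musculus allele lay above every CAST clone and the other above 35 of them. The difference of 0.35 had an exact permutation p of 0.0698 (adjusted p = 0.182), and inside the clones it was 0.37 and 0.43. The whole right flank, 49.5 to 50.5 Mb, gave 0.19 (adjusted p = 0.242), with 0.0812 without CTSS clone C4 and 0.31 without CR11.8k clone 50. Bbx, a gene of an HMG-box protein further right, was at −0.44 and −0.30 on musculus and at −0.46 ± 0.29 on CAST.

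None of the 6 intervals passed the threshold after adjustment, and 1, the left flank, had an unadjusted p under 0.05. The smallest p that the 946 arrangements of most intervals can give is 0.00106. Over all 80 windows the difference was −0.12 (adjusted p = 0.242). Over the 40 windows from 47.5 to 49.5 Mb, in which the effect of a deletion is measured as an area in the study, it was −0.15 (adjusted p = 0.182). The trapezoid area under the curve of each clone, in log2(E/L) times windows, was −8.95 and −8.67 for the musculus alleles. It was −3.20 ± 4.65 (SD, −16.4 to 6.20) for the CAST clones. The difference of these clone areas, −5.61, had an exact two-sided permutation p of 0.0941. It was −2.49 (exact permutation p = 0.462) with columns centred on their median and −3.64 from complete windows. The study measures the area under an averaged difference curve, and the area of the difference of the mean curves was −4.80 here. In the 2 clones themselves the mean difference over this interval was 0.15 and −0.14, with the deletion on the CAST allele.

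**Figure D4:**
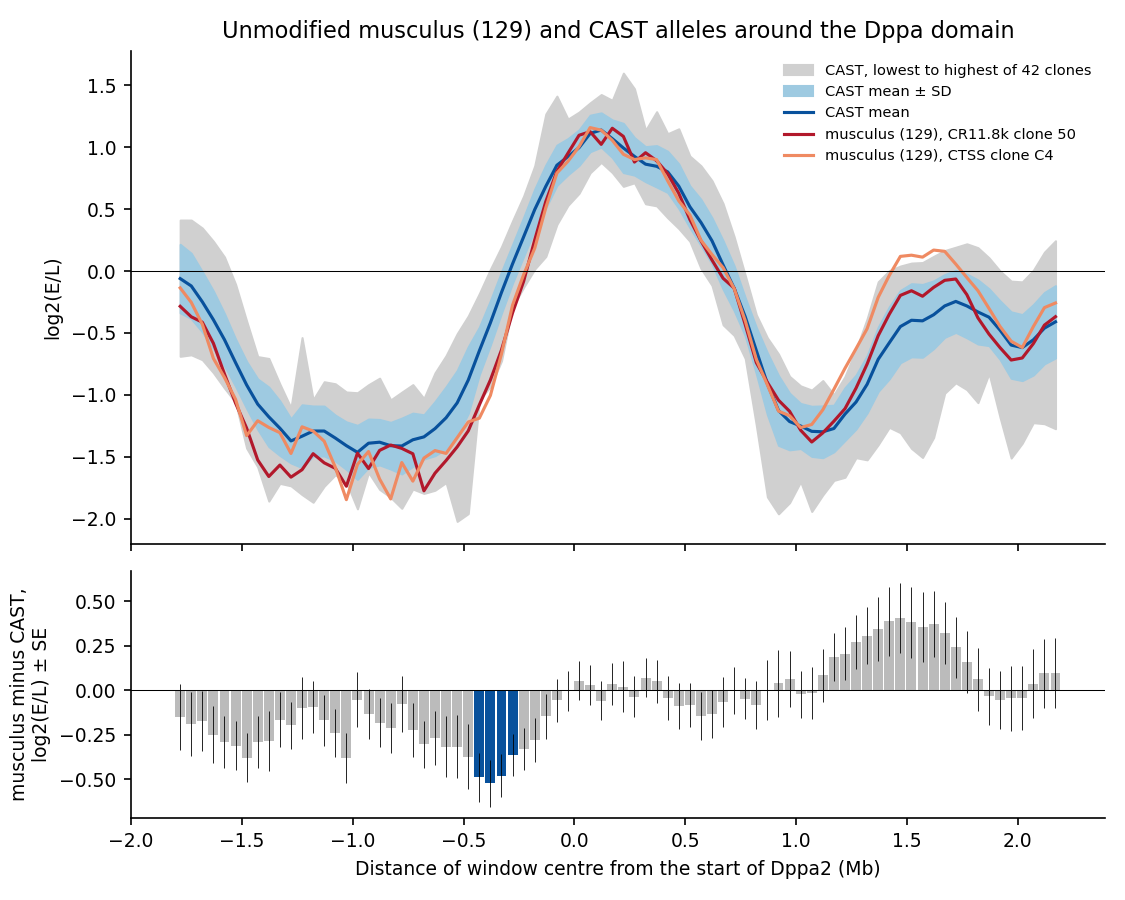
Upper panel: log2(E/L) (y axis) by distance from the start of Dppa2 (x axis, Mb) for both unmodified musculus alleles, with the CAST mean, its SD and its range over 42 clones. Lower panel: difference of the group means ± SE from limma, with the 4 called windows in blue. The curves coincide at the peak, the musculus curves are lower on the left slope by up to 0.52, and they are higher around 1.5 Mb to the right by up to 0.41.

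**Figure D5:**
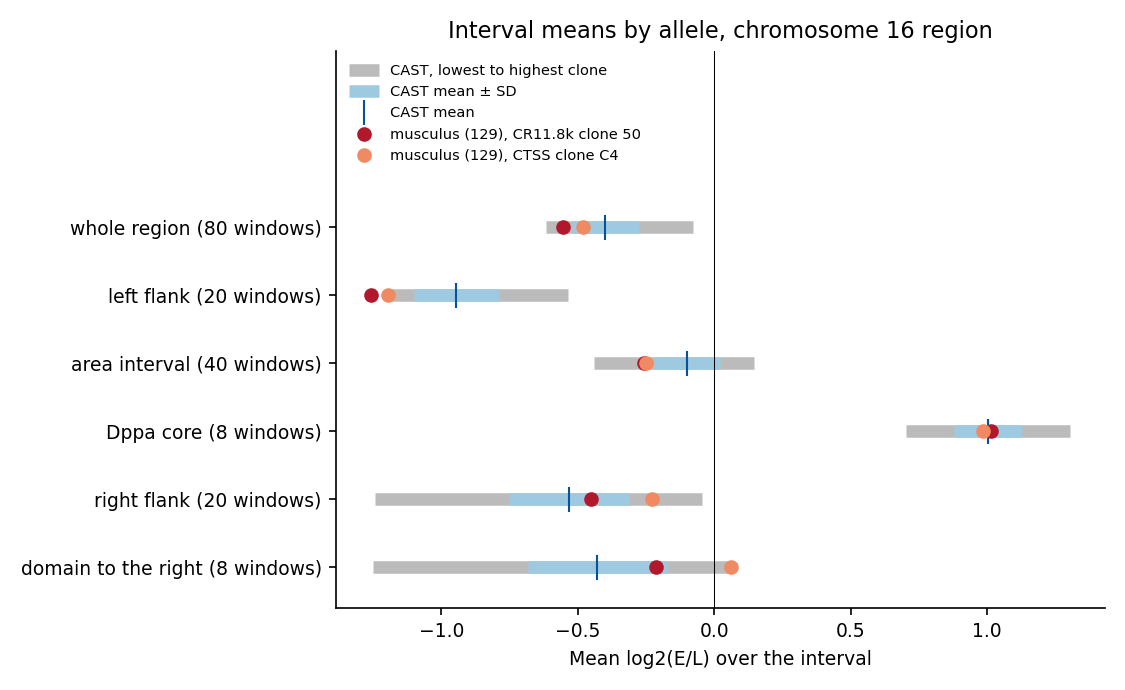
Mean log2(E/L) (x axis) over the 6 intervals of the chromosome 16 region (y axis) for each unmodified musculus allele (points), with the CAST mean, its SD and its range over clones (bars). Both musculus alleles lie below the CAST range in the left flank, from −1.26 to −1.20, and at the CAST mean in the Dppa core. Each mean runs over the windows with a value in that clone, and CAST clones differ in which windows are missing.

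The other genes of the region did not differ by the test either. There were 14 protein-coding genes that start in it. Trat1, a T cell receptor adaptor gene, differed by −0.09 ± 0.13 (SE), the resistin-like genes Retnlb and Retnla, which share a window, by −0.08 ± 0.12, and Retnlg by −0.15 ± 0.13. Dzip3, a ubiquitin ligase gene, and Cip2a, an inhibitor of the phosphatase PP2A, start back to back and differed by −0.07 ± 0.14. Myh15, a myosin heavy chain gene, differed by −0.05 ± 0.12. The largest differences of the 14 genes, 0.35 ± 0.18 for Ift57 and 0.38 ± 0.20 for Cd47, had adjusted p values of 0.274 and 0.283.

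Among the 6 intervals, the values of the CAST clones spread least at the Dppa peak and most in the domain to its right. Over all tested windows the SD over CAST clones had a median of 0.20, with 0.13 at the 5th and 0.30 at the 95th percentile, and the range from the lowest to the highest clone had a median of 0.90. In the region the median SD was 0.20 as well. In the Dppa core it was 0.15, which 12.5% of windows were below, and the widest range of a window there was 1.04. In the domain to the right it was 0.28, which 92.1% of windows were below, and the range reached 1.57. The window with the highest SD of the region, 0.30, starts at 49.8 Mb. Repeats of CAST clones also differed. The SD over windows was 0.28 and 0.27 between runs of Z.AOSN.COSN123 clones A9 and B4. Between cultures of a clone it ran from 0.16 (A.B.COSN123 clone 2E.1) to 0.36 (CTSS clone C12). Its median between different CAST clones was 0.27. The part of measurement error in the spread over clones was not tested.

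In the domain to the right both clones of CL20k were lowest, clone 85 at −1.25 and clone 49 at −1.07, followed by AOSN.B.COSN123 clone 1A.4 at −0.84. CR13.4k clone 2-49 at 0.05 and AOSN.BOSN12.COSN123 clone D6 at −0.01 were highest. The latter was the lowest CAST clone in the Dppa core, at 0.70, where COSN12 clone C6 was the highest, at 1.30. Clone D6 thus lay near opposite ends of the CAST clones in these domains. CL20k clone 49 was among the 3 lowest and CR13.4k clone 2-49 among the 3 highest in both. Each of these 3 clones was measured in 1 library, so clone and measurement error cannot be told apart.

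Genome-wide, 16 runs of at least 4 windows lay in the top 1% of windows by SD over CAST clones, at an SD of 0.36 or more. Of the 4 with the largest SD, those on chromosome 1 (27.95 to 28.25 Mb) and chromosome 2 (97.6 to 97.8 Mb) held no protein-coding gene start and had values in 14 and 17 CAST clones only. The others were covered in all 43. On chromosome 2 from 62.15 to 62.7 Mb, with Dpp4, a peptidase gene, Fap and Ifih1, a sensor of viral RNA, the CAST clones ran from −0.63 in AOSN.B.COSN123 clone 1A.4 to 0.94 in COSN12 clone C6 (SD 0.43). The unmodified musculus alleles were at −1.02 and −0.57 there, and the other musculus alleles ran from −1.61 to −0.18. On the same chromosome from 102.1 to 102.65 Mb, with Ldlrad3, Trim44 and Pamr1, the CAST clones ran from −0.83 in BTSS clone A10 to 0.57 in Z.AOSN.COSN123 clone B4 (SD 0.41), and the unmodified musculus alleles were at 0.31 and 0.67. In both domains clones of the same unmodified CAST homolog lay on either side of 0.

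Across windows, the SD over CAST clones was somewhat lower where replication was earlier (r = −0.39, a description over smoothed windows). The strain difference exceeded 1 SD of the CAST clones in 33.6% of windows and 2 SD in 10.8%. It exceeded the whole range of the CAST clones, from the lowest to the highest, in 414 windows.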

How the data were processed

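E/L Repli-seq libraries of F121-9 mESC clones were made by the study. The musculus homolog is of strain 129. The deposited table holds log2 values: for each homolog and 50 kb window, the authors took the log2 ratio of early over late reads after adapter trimming (Trim Galore, cutadapt), alignment to mm10 with variant positions masked, allele assignment and duplicate removal. They then scaled, quantile-normalized and loess-smoothed the profiles, so neighbouring windows are not independent and levels are relative to that normalization. Reads per window are not part of the values, so depth is unknown and precision rests on the number of clones.

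Repeat runs and then cultures were averaged to clones. Clones rather than separate animals are the replicates, so p-values measure the spread between clones. A window was tested with limma 3.58.1 (R 4.3.3; lmFit, eBayes) where both musculus clones and at least 10 CAST clones had a value, with Benjamini-Hochberg adjustment at 0.05. A size of 0.5 log2(E/L) was the second rule. Means over chromosomes (adjusted over 19) and over 6 intervals were compared by exact two-sided permutation of clones (Python 3.11.15, numpy 2.4.6, pandas 2.3.3), for clones with values in at least 50% of the windows. The limma step was tested on simulated data. Columns were mapped to samples by their headers.

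Named were all protein-coding genes starting in the chromosome 16 region, the 8 runs with the largest mean difference in each direction and the 4 with the largest SD over CAST clones (up to 3 of their longest named genes each), and up to 3 members of each gene list per direction. The alleles compared and the lists were chosen with earlier results of these data known. Alternatives were libraries as units, median centring, scaling by SD, 1 value per genotype, unmodified alleles by the genotype table, complete windows, at least 30 CAST clones per window, eBayes with trend, leaving out clones, numbered libraries with and without a replicate block, other interval edges and averages, and differences inside clones. The study's own comparisons were not used. The list of long genes is not reported here.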

Additional observations from a re-analysis of the deposited data

How the results depend on the processing

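The musculus group holds 2 clones, and the number of windows called followed it. Leaving out either musculus clone gave 589 to 719 windows earlier on musculus and 588 to 618 earlier on CAST (589 to 717 and 587 to 611 at least 0.5 apart), with the lone clone assumed to vary like the CAST clones. Libraries as units gave 3397 windows earlier on musculus. Median centring gave 1098 windows earlier on CAST, 878 of them at least 0.5 apart. Differences inside all clones, which rest on many more musculus alleles, gave 12212 and 14951 windows and 13 chromosomes past the threshold. Whether the numbers of cultures pair the samples is not known. Differences between cultures 1 and 2 of CTSS clone C4 correlated with those of 6 CAST clones at −0.16 to 0.38. The highest value was that of CTSS clone C12, of the same deletion genotype. Numbered libraries with a replicate block gave 1342 windows earlier on musculus and 826 earlier on CAST (794 at least 0.5 apart), and without it 1092 earlier on CAST, from fewer samples.

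The small differences turned sign. The Dppa core was at 0.0811 after centring, 0.008 with 1 value per genotype, 0.0043 without clones lacking a chromosome, 0.013 for intervals 1 window shorter, 0.0253 as a median over windows, and −0.0171 to 0.0136 with 1 musculus clone left out. All 80 windows gave 0.0395 in numbered libraries and 0.0517 with the replicate block. Chromosome 11 gave −0.0149 after SD scaling, and chromosome 16 gave 0.0167 with the replicate block. The left flank passed the threshold after centring (−0.22, adjusted p = 0.0439) and with 1 value per genotype (−0.25, adjusted p = 0.0369), and could not be computed from complete windows. The right flank (0.38) and the domain to the right (0.54) passed in numbered libraries without the block. With 1 musculus clone left out the domain to the right was 0.21 to 0.49. Inside the 2 clones all 80 windows gave 0.0153 and the area interval 0.0054. The median CAST SD was 0.21 over libraries and 0.18 from the interquartile range. In the domain to the right it was 0.22 from the interquartile range and 0.30 without clones lacking a chromosome. The run on chromosome 15 from 91.2 Mb had a mean of −0.62 in numbered libraries and −0.64 with the block. Beyond the effect of fewer or more samples, the cause of these changes was not tested. The other 138 values of the main comparisons, and 234 of single chromosomes and runs, were not classed as changed. Counts of windows among them still varied. Windows at least 0.5 apart and earlier on musculus numbered 2208 with median centring, beside 1484 in the main setting. Those earlier on CAST numbered 976 in numbered libraries without the block, beside 1353.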
